A study of Mus musculus with 13 samples.

Results

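Fgr, Lyn, Syk, Tyrobp, Fcer1g, Trem1, Trem3 and Evi2a are 8 genes best known from myeloid cells. They encode a pair of Src family kinases, the kinase Syk, a pair of signalling adaptors, a pair of Trem receptors and a membrane protein. They are 8 of the 23211 genes counted in 13 libraries of cells sorted from tissue around implants in the mouse tibia. The genes were chosen by name with their fibrous and bone values already known, so that contrast is given as a description, without a test. The contrast between kinds of library name was not used to choose them, and it is tested. Earlier results of these data were known when they were chosen, so the test is not fully separate from the choice.

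Trem1 and Trem3 are cell surface receptors that lack a signalling tail of their own. They pair in the membrane with Tyrobp, an adaptor also called DAP12, while Fcer1g is the common gamma chain that Fc receptors use in the same way. When a receptor is engaged, Src family kinases phosphorylate the tyrosine motif of the adaptor (the ITAM), and Syk docks on that motif and passes the signal on. Neutrophils and monocytes carry most parts of this route, and in bone it is known for its role in osteoclasts, the macrophage relatives that resorb bone.

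The labels assign 7 libraries to fibrous tissue at PMMA implants and 6 to bone at Pressfit implants. All were sorted by flow cytometry for LEPR, the leptin receptor, a marker of marrow stromal cells, and by the series title as Lin negative. No genotype, strain, age or time after implantation is given in the labels. Library names fall into the L002 series (5 fibrous, 4 bone) and the XY9274 series (2 fibrous, 2 bone). Within L002, 3 names hold the token Lin (fibrous 5, bone 3 and bone 4), 5 hold plus (fibrous 2, 3 and 4, bone 1 and 2) and that of fibrous 1 holds neither. The meaning of the tokens is not given, nor whether libraries came from separate animals. A p-value here speaks only of differences among libraries, whose spread may be technical.

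Total counts ran from 18056208 to 44302166 over the fibrous libraries and from 16162321 to 43217004 over the bone libraries. Lepr was under 5 normalised CPM (counts scaled to library size) in fibrous 1 and 5 and in bone 3, 4 and 5, against the label of the sort. Those 5 libraries include all 3 with Lin in their name. Levels below are normalised CPM unless a sentence says otherwise. In bulk RNA, fewer cells of a type and less RNA per cell cannot be told apart.

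All 8 genes had their highest value of the 13 libraries in bone 5 and their highest fibrous value in fibrous 6, both from the XY9274 series. These libraries also had the highest sums of the 15 neutrophil markers in their groups (fibrous 6 with 24428 CPM, bone 5 with 97486 CPM). At the low end, fibrous 1, fibrous 3 and bone 1 were among the 3 lowest libraries for 7, 6 and 6 of the 8 genes. Their neutrophil marker sums of 700, 801 and 1569 CPM were the lowest of the 13. The 14 monocyte and macrophage markers had their lowest sums in the same 3 libraries, at 209, 284 and 309 CPM. So did 6 markers of leukocytes in general, at 93.4, 96.7 and 119 CPM. Both lists had their highest sums within the groups in fibrous 6 and bone 5. The part of neutrophil or other leukocyte RNA in the values of the 8 genes was not tested.

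**Figure D1:**
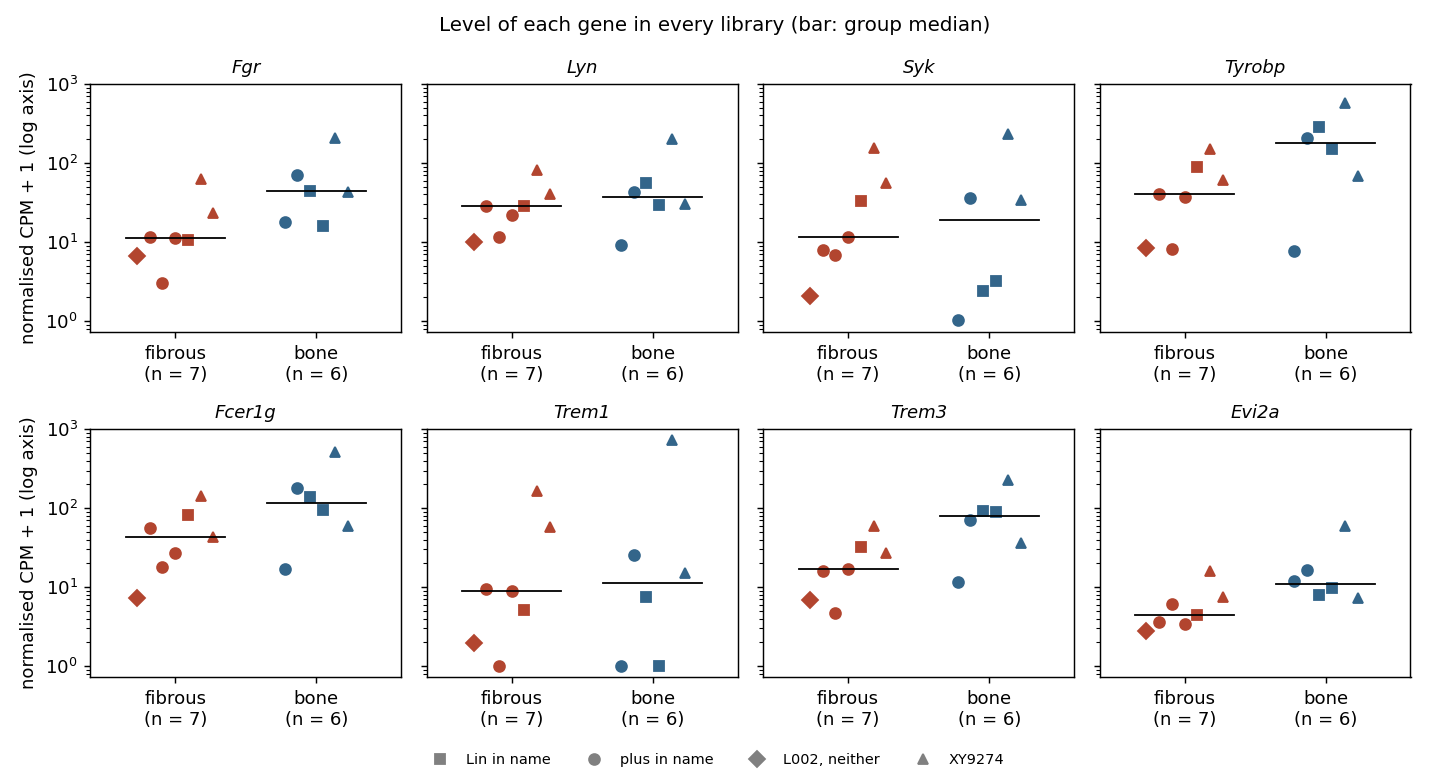
Normalised CPM + 1 (log axis) of each of the 8 genes in every library, with fibrous libraries (n = 7) left and bone libraries (n = 6) right in each panel. Marker shapes give the kind of library name and bars the group medians. The groups overlap for all 8 genes, and bone 5 is the highest bone library in every panel.

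RefSeq promoter windows (build GRCm38.p6, 300 bases across a transcript start, most of them before it) matched 4 of the 8 genes by symbol, which are Fgr, Fcer1g, Trem1 and Syk. They are shown as sequence only, and whether the motif bears on the levels was not tested. The motif searched was AGGAAG on both strands, a core to which PU.1, the product of Spi1, and other ETS factors bind. Capitals mark the match, which reads CTTCCT where it lies on the other strand. The windows printed are Fgr at chr4:132973845-132974144 on the plus strand, Fcer1g at chr1:171234300-171234599 on the minus strand and Trem1 at chr17:48232489-48232788 on the plus strand.
Fgr: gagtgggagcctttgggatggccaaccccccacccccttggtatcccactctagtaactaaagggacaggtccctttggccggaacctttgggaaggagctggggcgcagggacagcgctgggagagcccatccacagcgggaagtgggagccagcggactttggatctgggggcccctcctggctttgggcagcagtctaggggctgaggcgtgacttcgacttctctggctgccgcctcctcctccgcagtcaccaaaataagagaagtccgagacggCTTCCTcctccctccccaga
Fcer1g: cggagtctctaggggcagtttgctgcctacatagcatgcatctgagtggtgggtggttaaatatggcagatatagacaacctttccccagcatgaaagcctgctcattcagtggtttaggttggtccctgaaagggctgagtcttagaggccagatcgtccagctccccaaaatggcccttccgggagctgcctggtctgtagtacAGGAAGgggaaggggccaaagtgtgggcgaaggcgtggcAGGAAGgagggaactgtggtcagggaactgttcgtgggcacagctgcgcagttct
Trem1: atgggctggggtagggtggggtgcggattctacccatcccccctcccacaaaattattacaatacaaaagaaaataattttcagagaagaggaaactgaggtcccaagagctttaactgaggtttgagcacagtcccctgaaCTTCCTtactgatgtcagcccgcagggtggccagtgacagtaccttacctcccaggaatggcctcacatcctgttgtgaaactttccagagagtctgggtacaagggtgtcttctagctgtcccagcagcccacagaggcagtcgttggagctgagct
Fgr and Trem1 have 1 match each, on the other strand, and Fcer1g has 2 on its own strand, while the 2 windows of Syk have 0. The motif is common, since 35.4% of all 32851 windows of 300 bases hold it on either strand and 8.62% hold it more than once. A match describes these letters and shows no binding.

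The Trem receptors differed from each other in how evenly they were detected. Trem1 (ENSMUSG00000042265, chromosome 17, 48232768 to 48246924, plus strand, GENCODE M21 on mm10) amplifies inflammatory responses of neutrophils and monocytes. Its lowest, median and highest levels were 0, 7.83 and 166 CPM in fibrous libraries and 0, 10.2 and 728 CPM in bone libraries. It had 0 counts in fibrous 3, bone 1 and bone 4, which allows up to 0.110, 0.118 and 0.301 CPM there (3 counts in each library, counting error only). Every bone library but bone 5 lay within the fibrous range.

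Trem3 (ENSMUSG00000041754, chromosome 17, 48247777 to 48258841, plus strand) lies directly after Trem1 and is a DAP12-coupled receptor of mouse macrophages. Unlike Trem1 it was counted in every library. Over the fibrous libraries its lowest, median and highest levels were 3.75, 15.8 and 58.5 CPM, and over the bone libraries 10.6, 79.4 and 226 CPM. The bone median lay above the highest fibrous library, but bone 1 and bone 6 lay within the fibrous range.

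In TPM, which scales counts by exon length and library, the ratio of Trem1 to Trem3 split the libraries unevenly. It was 0.0560, 0.187, 0, 0.164, 0.0434, 0.939 and 0.735 in fibrous 1 to 7, and 0, 0.118, 0.0233, 0, 1.07 and 0.132 in bone 1 to 6. The 3 libraries above 0.5 all carry XY9274 names, and the fourth XY9274 library, bone 6, lay at 0.132, below fibrous 2 and 4. Of the neighbours in the Trem cluster, Treml2 had its 3 highest levels in the same libraries, at 18.6 CPM in fibrous 6, 6.24 in fibrous 7 and 31.9 in bone 5. Trem2, the receptor of macrophages and osteoclasts, had its 3 highest levels in bone 5, bone 3 and fibrous 1, with 0.357 to 3.63 CPM in fibrous libraries and 0 to 6.22 CPM in bone libraries.

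The adaptors were the most abundant of the 8 genes per length. Tyrobp (ENSMUSG00000030579, chromosome 7, 30413760 to 30417585, plus strand) averaged 428 ± 577 TPM over the 13 libraries (SD) and ranked first of the 8 in 10 of them. Its lowest, median and highest levels were 7.09, 39.0 and 149 CPM in fibrous libraries and 6.62, 179 and 574 CPM in bone libraries. Bone 1 was the lowest of all 13, and 3 bone libraries (bone 2, 3 and 5) lay above the highest fibrous one.

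Fcer1g (ENSMUSG00000058715, chromosome 1, 171229572 to 171234365, minus strand) is the adaptor of activating Fc receptors and of several lectin receptors. It averaged 284 ± 389 TPM and ranked first in the other 3 libraries, fibrous 2, fibrous 3 and bone 1. Its lowest, median and highest levels were 6.33, 42.3 and 142 CPM in fibrous libraries and 15.8, 116 and 507 CPM in bone libraries. The lowest bone library, bone 1, lay below 6 of the 7 fibrous ones. The TPM ratio of Fcer1g to Tyrobp had a median of 0.673 and ran from 0.366 in bone 3 to 1.84 in fibrous 3, the narrowest range of the 4 ratios computed. Hcst, the DAP10 adaptor encoded beside Tyrobp, was lower, at 0.625 to 8.89 CPM in fibrous libraries and 0 to 41.4 CPM in bone libraries.

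Fgr (ENSMUSG00000028874, chromosome 4, 132974095 to 133001910, plus strand) is a Src family kinase largely confined to myeloid cells. Levels ran from 1.98 to 61.3 CPM with a median of 10.1 in fibrous libraries, and from 14.7 to 206 CPM with a median of 43.0 in bone libraries. In 5 of the 7 fibrous libraries Fgr lay below every bone library, and the 2 exceptions were the XY9274 libraries fibrous 6 and 7.

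Lyn (ENSMUSG00000042228, chromosome 4, 3678115 to 3813122, plus strand) serves B cells and mast cells as well as myeloid cells and both starts and restrains signalling. It ran from 9.14 to 79.9 CPM with a median of 27.5 in fibrous libraries, and from 8.12 to 203 CPM with a median of 35.7 in bone libraries. The medians were close, and 5 of the 6 bone libraries lay within the fibrous range or below it. The TPM ratio of Fgr to Lyn was 0.197 to 0.809 (median 0.508) in fibrous libraries and 0.544 to 2.21 (median 1.30) in bone libraries. The kinase pair was thus balanced differently in the medians, with overlapping ranges. Of the 4073 exon bases of Lyn, 248 are shared with a gene on the opposite strand, and strand use in the counting is not given in the sources used here.

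Syk (ENSMUSG00000021457, chromosome 13, 52583173 to 52648792, plus strand) is the kinase that reads the adaptors' phosphorylated motif. It was at 1.05, 6.94, 5.84, 10.6, 32.4, 154 and 54.8 CPM in fibrous 1 to 7. In bone 1 to 6 it was at 0.0394, 35.2, 1.42, 2.21, 230 and 33.5 CPM, and the value of bone 1 rests on 1 count. Bone 1, 3 and 4 were thus at or below 2.21 CPM and the other 3 bone libraries at or above 33.5 CPM, while 6 of the 7 fibrous libraries lay above bone 4. The TPM ratio of Syk to Tyrobp was 0.000424, 0.000353 and 0.00106 in bone 1, bone 3 and bone 4, and at least 0.0103 in every other library. In bone 3 and bone 4 Tyrobp was high, at 286 and 148 CPM, while Syk had 22 counts in each. Bone 4, bone 3 and bone 1 also had the fewest genes detected of all libraries, at 14644, 14885 and 15074. Fibrous 5 came next at 15081. Whether this bears on the low Syk counts was not tested.

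**Figure D2:**
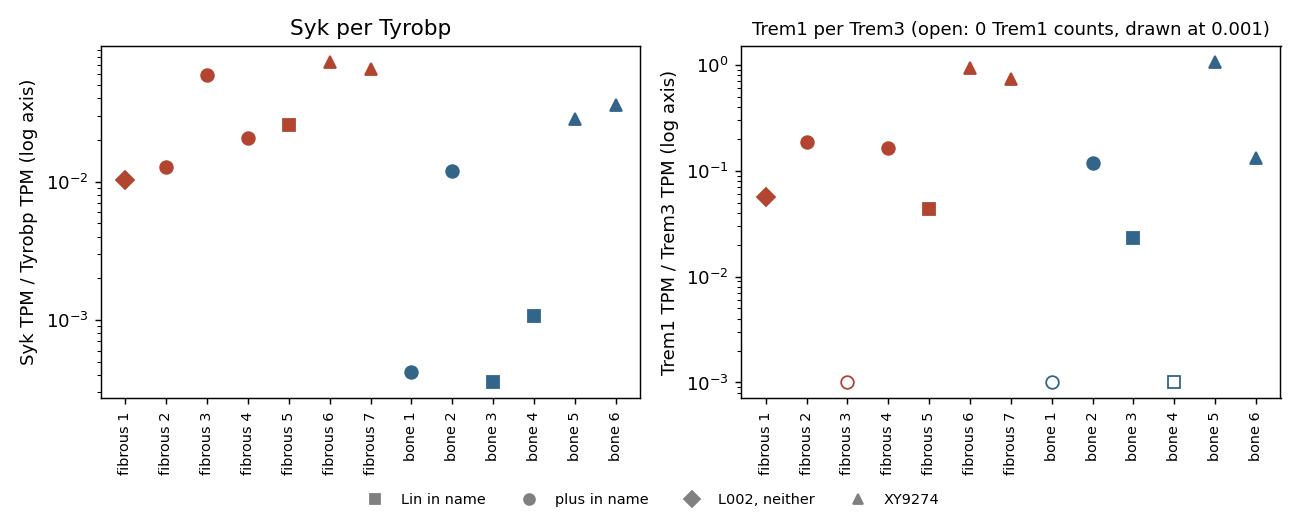
TPM ratios (log axes) of Syk to Tyrobp, left, and of Trem1 to Trem3, right, in each library, with fibrous libraries before bone libraries on each axis and marker shapes for the kind of library name. Open markers stand for 0 Trem1 counts. Bone 1, 3 and 4 lie at or below 0.00106 for Syk to Tyrobp, and fibrous 6, fibrous 7 and bone 5 lie above 0.5 for Trem1 to Trem3.

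Evi2a (ENSMUSG00000078771, chromosome 11, 79526560 to 79530609, minus strand) encodes a membrane protein named for a viral integration site and lies within Nf1, on the opposite strand. No place in the adaptor route is assigned to it here. Its lowest, median and highest levels were 1.76, 3.39 and 15.0 CPM in fibrous libraries and 6.33, 9.86 and 58.4 CPM in bone libraries. In 5 of the 7 fibrous libraries it lay below every bone library, the exceptions being fibrous 6 and 7, as for Fgr.

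The Evi2a locus could mix reads of several genes. Evi2a shares 442 of its 2297 exon bases with Evi2, a readthrough gene on the same strand, and reads there could be assigned to either. Evi2 itself was at 0 to 1.10 CPM in fibrous libraries and 0 to 6.17 CPM in bone libraries. Nf1, which shares 0 exon bases with Evi2a, was at 0.273 to 9.54 CPM in fibrous libraries and 0.276 to 10.6 CPM in bone libraries, and its highest value was in bone 2. Omg, also nested in Nf1, had 0 counts in 8 of the 13 libraries.

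Per length, the order of the mean levels over the 13 libraries was Tyrobp, Fcer1g, Trem3, Trem1, Lyn, Fgr, Syk and Evi2a. The means after the adaptors were 116 TPM for Trem3, 71.8 for Trem1, 27.7 for Lyn, 26.0 for Fgr, 13.4 for Syk and 12.3 for Evi2a. The SD of each gene over the libraries was larger than its mean. It does not measure the difference between 2 genes, which were counted in the same libraries. Trem1 owed its place to a few libraries, since its median of 6.93 TPM was below those of Lyn (14.4) and Fgr (12.1). Within single libraries the order was steadier, with Tyrobp or Fcer1g first in all 13. Fcer1g was first in 3 and second in 10, and Syk was seventh or eighth in 9.

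Over both tissues, 7 of the 8 genes had a log2 fold change of fibrous over bone below 0, the exception being Syk, in a fit of all genes with name series as a term. The median was -1.64 over the 8 genes and 0.03 over all genes tested, of which 48.1% were below 0. By edgeR, 0% of the 13294 genes passed an adjusted p of 0.05 (636 genes had an unadjusted p under 0.05, DESeq2 called 169 and limma-voom 0). Groups that did not overlap were seen for 0.0677% of genes and for 0 of the 8. These counts follow from how the genes were chosen and are not evidence on them.

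Fgr, Trem3, Tyrobp and Evi2a had the lowest values, with log2 fold changes of -2.04 (SE 0.53), -2.02 (SE 0.61), -2.01 (SE 0.80) and -1.72 (SE 0.51). Fcer1g had -1.56 (SE 0.68), Trem1 -1.15 (SE 1.31), Lyn -0.85 (SE 0.50) and Syk 0.04 (SE 1.05). Within the L002 and the XY9274 series these were -2.28 and -1.64 for Fgr, -2.24 and -1.71 for Trem3, -2.23 and -1.70 for Tyrobp, and -1.81 and -1.67 for Evi2a. Those 4 genes and Fcer1g (-1.57 and -1.70) were thus below 0 in each series alone, as were Lyn (-0.85 and -1.05) and Trem1 (-0.90 and -1.82). Syk had 0.23 in L002 and -0.42 in XY9274.

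Several of these values were smaller without the 5 libraries low in Lepr. Without them the log2 fold change was -1.76 for Fgr, -1.18 for Tyrobp, -1.14 for Trem3, -1.16 for Evi2a and -0.87 for Fcer1g. It was -0.14 for Trem1, and it changed sign for Syk (-0.34) and for Lyn (0.13). Single libraries weighed most on Syk, at 1.87 without bone 2 and -0.61 without fibrous 5, and on Trem1, at -0.09 without bone 2. By limma-voom Trem1 had 0.49.

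**Figure D3:**
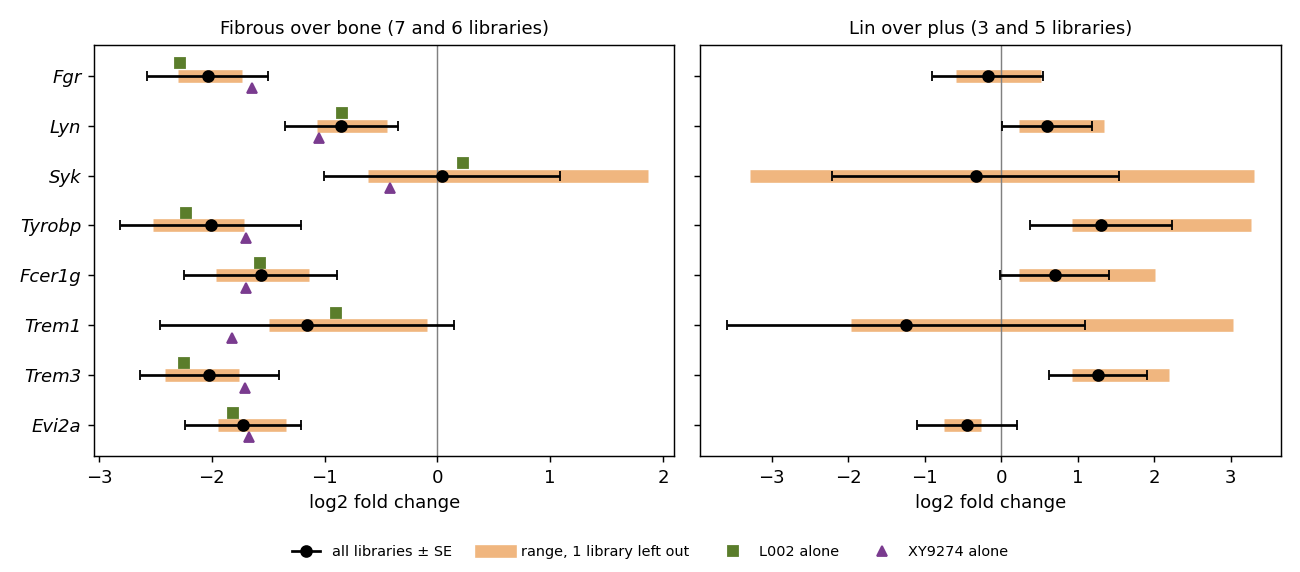
Log2 fold changes of the 8 genes, fibrous over bone in 7 and 6 libraries (left) and Lin over plus in 3 and 5 libraries (right). Points with bars are edgeR values ± SE, and the wide bands run over the values with 1 library left out. On the left, squares and triangles give the L002 and the XY9274 series alone. The bands of Syk and Trem1 on the right cross 0, from -3.29 to 3.31 and from -1.97 to 3.04.

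Markers of several other cell types differed in their medians between the tissues, and those of osteoclasts hardly did. The 15 neutrophil markers summed to a median of 7949 CPM (700 to 24428) in fibrous libraries and 31261 CPM (1569 to 97486) in bone libraries. The 14 monocyte and macrophage markers summed to a median of 1068 CPM (209 to 3179) in fibrous libraries and 3573 CPM (309 to 11723) in bone libraries. In bone 1, 8 of those 14 were at 0, among them Csf1r and Adgre1, as were the neutrophil markers Prtn3, Ly6g and Csf3r. The 6 osteoclast markers measured summed to a median of 578 CPM (398 to 811) in fibrous libraries and 585 CPM (497 to 2010, with bone 5 far above the next at 594) in bone libraries, with Dcstamp at 0 in every library but bone 5 and bone 6. B and plasma cell markers (8) summed to a median of 191 CPM (60.5 to 1758) in fibrous libraries and 1078 CPM (68.3 to 18068) in bone libraries. The 7 mast cell and basophil markers measured summed to a median of 7.81 CPM (5.95 to 520) in fibrous libraries and 22.9 CPM (5.30 to 1576) in bone libraries, with Cma1 at 0 in every library but bone 5. Their part in the values of the 8 genes was not tested.

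Relative to Itgb2, the fibrous and bone means of Fgr, Trem3, Tyrobp, Evi2a and Fcer1g lay closer together than in the fit. Relative to Ptprc, these genes did so clearly only with bone 4 left out. Syk lay further apart than in the fit relative to either, but for Syk the measures are unlike. Its bone mean takes in bone 1, with 1 count and a log2 ratio of -7.61 to Ptprc. This widening is therefore not read as a result. All leukocytes express both references. The means are taken over log2 ratios of single libraries and carry no series term, unlike the fit. Counts per count of Itgb2, the common chain of the leukocyte integrins, differed between fibrous and bone means by -0.60 for Fgr, -0.52 for Trem3, -0.32 for Tyrobp, -0.20 for Evi2a and -0.10 for Fcer1g (log2 of counts plus 1). They differed by 0.74 for Lyn, 1.66 for Trem1 and 2.56 for Syk. Without bone 4, where Trem1 had 0 counts, they differed by 0.62 for Trem1, 2.30 for Syk and -0.87 for Fgr. Counts per count of Ptprc, which encodes CD45, differed by -2.02 for Fgr, -1.94 for Trem3, -1.74 for Tyrobp, -1.61 for Evi2a and -1.52 for Fcer1g. For Lyn, Trem1 and Syk they differed by -0.67, 0.25 and 1.15. Bone 4 decided those values, since it had 0 Ptprc counts, which allows up to 0.301 CPM. Without bone 4 the differences per Ptprc were -0.80, -0.30, -0.14, -0.19 and -0.01 for Fgr, Trem3, Tyrobp, Evi2a and Fcer1g, and 0.77, 0.69 and 2.38 for Lyn, Trem1 and Syk. These ratios use the contrast by which the genes were chosen and carry no test.

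The contrast of library names asked whether the 8 genes differ between libraries named Lin and libraries named plus within the L002 series, with tissue as a term. By edgeR 1097 of 13450 genes, 8.16%, passed an adjusted p of 0.05, with 424 higher and 673 lower in Lin libraries. Of the 8 genes 0 passed, and 0 had an unadjusted p under 0.05. DESeq2 called 0 of the 8 and 26.0% of all genes, and limma-voom called 0 of the 8, with 1 at an unadjusted p under 0.05. The Lin and plus values overlapped for all 8, while 25.4% of all genes had values that did not. The median log2 fold change was 0.21 over the 8 genes, against -0.21 over all genes, so each value below can be read against -0.21.

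Trem3 and Tyrobp came nearest to a difference. Trem3 was at 31.0, 91.8 and 89.0 CPM in the Lin libraries fibrous 5, bone 3 and bone 4, against 15.0, 3.75, 15.8, 10.6 and 69.8 CPM in the plus libraries fibrous 2, 3 and 4 and bone 1 and 2. All 3 Lin libraries lay above 4 of the 5 plus libraries, and bone 2 lay between them (log2 fold change 1.27, SE 0.64; adjusted p = 0.247 by edgeR). Tyrobp was at 89.3, 286 and 148 CPM in Lin libraries, against 39.0, 7.09, 36.1, 6.62 and 209 CPM in plus libraries. Bone 2 again stood among the Lin libraries, and the log2 fold change was 1.30 (SE 0.93; adjusted p = 0.409 by edgeR). Without bone 2 it was 3.26 for Tyrobp and 2.19 for Trem3.

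Fcer1g, the other adaptor, was at 80.0, 137 and 94.3 CPM in Lin libraries, against 54.8, 17.1, 25.8, 15.8 and 180 CPM in plus libraries (log2 fold change 0.70, SE 0.71; adjusted p = 0.565 by edgeR). Bone 2 was the one plus library above any Lin library. Without it the fold change was 2.01, with the smallest adjusted p of any alternative for the 8 genes at 0.0933, where the alternatives for Fcer1g ran up to 0.929. Lyn was at 27.5, 54.3 and 28.6 CPM in Lin libraries, against 27.5, 10.6, 20.98, 8.12 and 42.2 CPM in plus libraries (log2 fold change 0.60, SE 0.59; adjusted p = 0.551 by edgeR). For Lyn the fold change was 1.34 without bone 2 and 0.23 without bone 1.

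The remaining genes had log2 fold changes below 0. Fgr was at 9.73, 43.4 and 14.7 CPM in Lin libraries, against 10.7, 1.98, 10.1, 17.0 and 69.9 CPM in plus libraries (log2 fold change -0.18, SE 0.73; adjusted p = 0.898 by edgeR). Evi2a was at 3.39, 7.02 and 8.73 CPM in Lin libraries, against 2.63, 5.07, 2.44, 10.998 and 15.4 CPM in plus libraries (log2 fold change -0.44, SE 0.65; adjusted p = 0.700 by edgeR). Both sets lay within the range of the plus libraries. Syk was at 32.4, 1.42 and 2.21 CPM in Lin libraries, against 6.94, 5.84, 10.6, 0.0394 and 35.2 CPM in plus libraries (log2 fold change -0.33, SE 1.88; adjusted p = 0.925 by edgeR). Trem1 was at 4.06, 6.44 and 0 CPM in Lin libraries, against 8.46, 0, 7.83, 0 and 24.9 CPM in plus libraries (log2 fold change -1.25, SE 2.34; adjusted p = 0.769 by edgeR). The sign for Syk and Trem1 depended on the libraries and settings used. Without bone 2 the fold change was 3.31 for Syk, 3.04 for Trem1 and 0.52 for Fgr. Syk was also above 0 without bone 3 (0.64), without bone 4 (0.58) and by limma-voom (1.53), and Trem1 by limma-voom (1.18).

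Other cell types differed between the name groups to different degrees. The neutrophil markers summed to 10946 to 33509 CPM in Lin libraries and 801 to 38799 CPM in plus libraries, and the monocyte and macrophage markers to 1683 to 4058 and 284 to 4533 CPM. Erythroid markers (8) held 21.3% to 36.7% of the counts in Lin libraries and 3.12% to 8.33% in plus libraries. Stromal markers (9) summed to 15.3 to 27.0 CPM in Lin libraries and 892 to 11385 CPM in plus libraries. Within the Lin and plus libraries a low Lepr and the token Lin cannot be told apart, and the part of these markers in the values was not tested.

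A pair of library pairs share the last part of their name, which may or may not mean a shared sample. Bone 4 (Lin) had lower levels than bone 2 (plus) for 7 of the 8 genes, the exception being Trem3 at 89.0 against 69.8 CPM. The gap was widest for Trem1, at 0 against 24.9 CPM, and for Syk, at 2.21 against 35.2 CPM. Fibrous 5 (Lin) and fibrous 2 (plus) ran differently, with Syk at 32.4 against 6.94 CPM, Tyrobp at 89.3 against 39.0 CPM and Trem3 at 31.0 against 15.0 CPM. Trem1, at 4.06 against 8.46 CPM, and Fgr, at 9.73 against 10.7 CPM, were lower in the Lin library here too. Trem3 was the one gene of the 8 that was higher in the Lin library of both pairs, by 0.35 and 1.00 on the log2 scale (pseudocount 1).

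Further genes of the route were counted from 4 lists. Among the 8 Src family kinases edgeR called 0 higher and 1 lower in Lin libraries, with a median log2 fold change of 0.17. The kinase called was Yes1, a widely expressed Src relative, at 0 to 0.1003 CPM in Lin libraries and 1.15 to 12.1 CPM in plus libraries (log2 fold change -7.14, SE 1.51; adjusted p = 0.0346 by edgeR). The fitted value depends on the prior count, since the Lin libraries held few Yes1 reads. DESeq2 also called it, but by edgeR the adjusted p of Yes1 was between 0.0514 and 0.0998 with any 1 of the 8 libraries left out. Src was at 0 in all 3 Lin libraries and at 0.0414 to 5.45 CPM in plus libraries (adjusted p = 0.103 by edgeR). Fyn, at 7.09 ± 11.3 CPM in Lin and 41.2 ± 20.2 CPM in plus libraries (SD, n = 3 and 5), and Blk, at 13.1 ± 9.08 CPM in Lin and 0.956 ± 2.12 CPM in plus libraries, did not pass either (adjusted p = 0.112 and 0.312 by edgeR). DESeq2 called 2 of the kinases, Yes1 and Fyn (adjusted p = 0.00238 for Fyn by DESeq2).

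Of 20 tested receptors and partners of the adaptors, out of 27 listed, edgeR called 0 and DESeq2 3, with a median of 1.37 by edgeR. Those 3 were Cd300c2, Trem2 and Sirpb1b (adjusted p = 0.0051, 0.0174 and 0.037 by DESeq2). Trem2 values overlapped, at 0 to 5.35 CPM in Lin and 0 to 1.43 CPM in plus libraries (adjusted p = 0.282 by edgeR). The smallest p-values belonged to Cd300c2, Fcgr3, Pira2 and Sirpb1b. Fcgr3, the low affinity Fc receptor that pairs with Fcer1g, was at 51.8 ± 20.6 CPM in Lin and 16.9 ± 18.2 CPM in plus libraries (log2 fold change 1.53, SE 0.58; adjusted p = 0.140 by edgeR). Cd300c2 was at 2.91 to 6.83 CPM in Lin and 0 to 0.809 CPM in plus libraries (adjusted p = 0.136 by edgeR). Pira2 and Sirpb1b, at 1.69 ± 0.773 and 4.43 ± 2.89 CPM in Lin and 0.179 ± 0.231 and 0.664 ± 0.496 CPM in plus libraries, have close paralogs between which reads could be split.

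Downstream of Syk, edgeR called 0 of 21 tested genes and DESeq2 3 (24 listed, median 0.23 by edgeR). Those 3 included Nfatc1 and Bcl10 (adjusted p = 0.0046 and 0.0112 by DESeq2). Bcl10, which links Syk through Card9 to NF-kappaB, was at 56.5 ± 14.3 CPM in Lin and 26.1 ± 6.95 CPM in plus libraries (log2 fold change 1.15, SE 0.34; adjusted p = 0.0823 by edgeR). Nfatc1, the transcription factor at the end of the route in osteoclasts, was at 5.04 ± 8.01 CPM in Lin and 32.5 ± 13.8 CPM in plus libraries (log2 fold change -3.42; adjusted p = 0.135 by edgeR). Without fibrous 5 both Nfatc1 and Fyn passed (adjusted p = 0.0357 for each by edgeR), and without fibrous 2 Blk passed (adjusted p = 0.0380 by edgeR). Btk, a kinase beside Syk, and the linker Grb2 had log2 fold changes of 0.82 and 0.46 (adjusted p = 0.160 and 0.261 by edgeR).

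Among the phosphatases, adaptors and receptors that restrain the route, 0 of 25 tested genes were called by edgeR or by DESeq2 (27 listed, median 0.50 by edgeR). Inpp5d, the lipid phosphatase SHIP1, was at 23.8 ± 7.16 CPM in Lin and 39.6 ± 14.4 CPM in plus libraries (log2 fold change -0.73; adjusted p = 0.327 by edgeR). Sla, Dok3 and Ptpn18, which dampen kinase signalling, had log2 fold changes of 1.17, 1.52 and 1.53 (adjusted p = 0.208, 0.281 and 0.296 by edgeR). Over the 4 lists together edgeR called 1 of 74 tested genes (1.35%, against 8.16% of all genes) and DESeq2 8 (10.8%, against 26.0% of all genes). In the tissue contrast, a value below 0 (fibrous lower than bone) was found for 5 of 8 Src family kinases, 19 of 21 receptors and partners, 14 of 21 genes downstream of Syk and 21 of 25 restraining genes. Their medians were -0.58, -1.52, -0.35 and -1.23, with 0 called in each by edgeR. Over all genes 48.1% were below 0 and the median was 0.03. The lists were chosen with earlier results of these data known. These counts are therefore a description and not evidence on the lists. Fgr and Lyn, themselves among the 8 genes, are in the first list.

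The genes whose pattern over the 13 libraries came nearest to each of the 8 were taken by the root mean square difference of log2 CPM, each gene centred on its mean, among 13286 other genes. This is a description over libraries that share depth and cell content. Tyrobp had the closest neighbours, with Cd52 at 0.25, Lyz2 at 0.32 and Coro1a at 0.33. Trem3 came next to Cd53 (0.29), Coro1a (0.40) and Lyz2 (0.41), and Lyn had Parvg (0.37) and Vsir (0.42) among its neighbours. The neighbours of Fcer1g were Slpi (0.38), Arhgdib (0.39) and Coro1a (0.43).

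The other genes had larger distances, and this measure is not scaled to how much a gene varies. Fgr lay nearest to Gca (0.53), Spi1 (0.62) and Osm (0.65), and Evi2a to Pygl (0.58), Chil1 (0.63) and Rgs19 (0.64). Syk had no neighbour closer than 1.23 (Rin3), followed by Prkch (1.24) and Celf2 (1.29), and Trem1 none closer than 1.20 (Prkcb), followed by Cst7 (1.51) and Mpeg1 (1.69). Syk and Trem1 were the most variable of the 8, with SDs of log2 CPM of 3.12 and 4.28, where the other 6 had 1.28 to 2.09. Their larger distances are therefore not a result apart from that spread.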

How the data were processed

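The data deposited by the authors are raw counts, whole numbers in a single matrix of 23211 mouse Ensembl genes. The submitters' processing notes name edgeR, mm10 and hg38, with no role, and no aligner, counter or strand setting (not given in the sources used here). Symbols, positions and exon lengths came from GENCODE M21 (mm10), and all IDs matched. The 8 genes and all lists were chosen with earlier results of these data known. The fit of all genes used edgeR 4.0.16 (R 4.3.3; TMM, filterByExpr with a minimum count of 10, robust quasi-likelihood test, Benjamini-Hochberg adjustment over all genes tested, threshold 0.05), with name series as a term for tissue and tissue as a term for Lin over plus. The fit was also run on simulated counts, with a single dispersion for all genes and no differences in cell content between libraries. That run says little on libraries as unlike each other as these. The SE is the log2 fold change over the root of F. Normalised CPM use TMM-scaled library sizes, and TPM use the union of exons. DESeq2 1.42.0, limma 3.58.1, filters, scalings and left-out libraries were alternatives. Named genes are the 8, their 3 nearest genes each, locus neighbours, and up to 4 per route list by smallest p. Oscar, Gp49a and Evi2b are not analysed here, and 1 neighbour of Lyn and the make-up of the Src family are not reported here.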

Additional observations from a re-analysis of the deposited data

Results flagged for a closer look

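Single libraries stood apart from the rest of their group for 15 of 24 combinations of gene and group, by the gap to the next library on the CPM scale. The rule's chance rate of about 5% was not set for values as skewed as these. The count is therefore not read against it. The groups were the 7 fibrous, the 6 bone and the 5 plus libraries, and the 8 genes share libraries, so these are few independent cases. Among fibrous libraries, fibrous 6 was far above the next for Fgr (61.3 CPM, next 22.6), Lyn (79.9, next 39.0), Syk (154, next 54.8), Trem1 (166, next 57.3) and Evi2a (15.0, next 6.52). Among bone libraries, bone 5 was far above the next for Fgr (206 CPM, next 69.9), Lyn (203, next 54.3), Syk (230.25, next 35.2), Fcer1g (507, next 180), Trem1 (728, next 24.9) and Evi2a (58.4, next 15.4). Among plus libraries, bone 2 was far above the next for Fgr (69.9 CPM, next 17.0), Tyrobp (209, next 39.0), Fcer1g (180, next 54.8) and Trem3 (69.8, next 15.8).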

How the results depend on the processing

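For fibrous over bone, the number of genes called was 0 by edgeR under all other settings run and 169 by DESeq2. For Lin over plus, 1097 genes were called, against 3493 by DESeq2, 566 by limma-voom, 354 with Lin set against all other L002 libraries, and 138 (without fibrous 3) to 992 (without fibrous 4) with 1 library left out. The count was 368, 470 and 264 without bone 1, bone 2 and fibrous 2, 144 without bone 3 or bone 4, and 851 without fibrous 5. Only the names of 2 pairs match, and replicate numbers pair none; with those pairs as a replicate block (4 libraries) 15 genes were called, which with so few libraries says nothing on the size of effects. Over the 4 route lists, where 1 gene was called, DESeq2 called 8. Added after seeing the data, the count was 0 by limma-voom, with Lin against all other L002 libraries, with all 13 libraries and in the replicate block, and 0 to 3 with 1 library left out. For the 8 genes, Lin over plus changed sign for Fgr (0.0277 without a tissue term, 0.52 without bone 2, 0.19 without bone 4), Lyn (-0.30 in the replicate block) and Fcer1g (-0.21 in the block). It also did for Syk (1.53 by limma-voom, 0.0266 without a tissue term, 0.24 against all other L002 libraries, 3.31 without bone 2, 0.64 without bone 3, 0.58 without bone 4) and Trem1 (1.18 by limma-voom, 3.04 without bone 2). With 1 library left out, Lin over plus ran from -0.59 to 0.52 for Fgr, -3.29 to 3.31 for Syk and -1.97 to 3.04 for Trem1. In none of these was any of the 8 past 0.05, and the cause was not tested. With DESeq2's size factors the median of all genes for Lin over plus was -0.18, and it was -0.21 with TMM. Counts as low as those of Trem1 and Syk in bone 1, 3 and 4 limit what can be said of them.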
